A study of Mus musculus with 2 samples.

Results

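The genes described here encode a ligand of the insulin and insulin-like growth factor (IGF) system, its receptors, the substrates of those receptors, and secreted IGF binding proteins. The set held 10 genes, chosen by name: Igf1, Insr, Igf1r, Irs1, Irs2, Igfbp3, Igfbp4, Igfbp5, Igfbp7 and Igf2bp2. Of these, 9 could be followed among the 18193 genes that the platform annotation gives a probe set of their own, through 27 probe sets of the 45101 on the array. Igf2bp2, whose protein binds Igf2 mRNA, was not analysed here.

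Whole pancreas was taken from male offspring of C57BL/6J dams at 10 weeks of age, and RNA was pooled within each of 2 groups. In the control group the dams ate control diet. In the threonine-deficient group they ate a diet short of threonine, an essential amino acid, from embryonic day 12.5 to 14.5. Pups of both groups were weaned at 3 weeks onto control diet and received no treatment of their own, so the groups shared strain, sex, age and postnatal diet. Each group was 1 pool on 1 Affymetrix mouse expression array. The sources used here do not say how many animals a pool held, and no value below has a replicate or a test.

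Insulin and IGF1 act through related receptor tyrosine kinases, the insulin receptor and the IGF1 receptor. The activated receptors phosphorylate IRS adaptor proteins, which recruit PI3 kinase and so activate AKT, while a further branch runs through RAS to the MAP kinases. IGF binding proteins hold IGFs in blood and tissue and govern their access to the receptor, and proteases release them. In the pancreas, signalling through these receptors and through IRS2 is known for its part in the growth and survival of beta cells, and acinar cells also respond to insulin.

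The pools differed by less than 1.5-fold in the brightest probe set of each gene that gave a usable signal. Because low signals on such arrays are mostly noise, a floor of 265 was set at the 60th percentile of the array where that percentile was higher, and lower signals were raised to it. On at least 1 array 8 members exceeded the floor, and Irs2 was below it on both. When each gene was read by its brightest probe set, 4 members were higher and 4 lower in the threonine-deficient pool. Their log2 ratios of threonine-deficient over control ran from −0.18 to 0.27, with a median of 0.0039 beside 0.0011 over all 10758 genes above the floor. When each gene was read by the median of its probe sets above the floor, the member median was 0.22, beside 0.0098 over all genes. None of the 8 was 2-fold apart, where 2.16% of all genes were, and none was 1.5-fold apart, where 12.6% were. A count of 0 of 8 is near both of these shares.

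**Figure D1:**
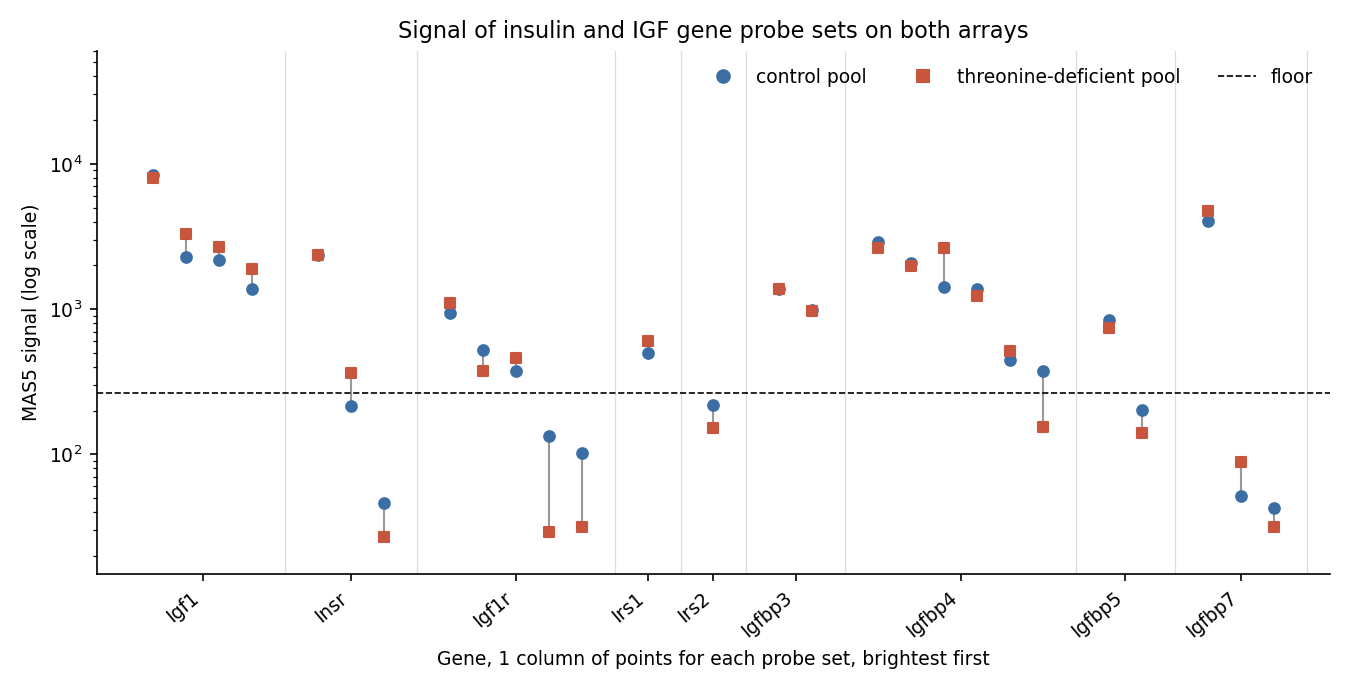
MAS5 signal (vertical axis, log scale) of the 27 probe sets of 9 genes in the control pool (circles) and the threonine-deficient pool (squares), with the floor of 265 dashed. The brightest probe sets of Igf1, Insr, Igfbp3 and Igfbp4 nearly coincide on both arrays, while 3 dimmer probe sets of Igf1 are higher in the threonine-deficient pool.

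A probe set is a group of short oligonucleotides that read 1 stretch of a transcript, usually near its 3′ end. Its signal depends on those oligonucleotides, so signals of different probe sets, and hence of different genes, were not set against each other. Names ending in _a_at mark probe sets that can read several transcript forms of a gene, and those in _s_at or _x_at mark possible reading of other genes. As a guide to noise, each ratio was set beside a local spread, computed as the scaled median absolute deviation over the 500 probe sets nearest in mean signal. Near the floor this spread is compressed, because many of the neighbours sit at the floor on 1 array. Of the 27 member probe sets, 18 were above the floor on both arrays, 2 on 1 array and 7 on neither. None of the 20 above it somewhere was 2-fold apart, beside 2.37% of all such probe sets. Of these 20, 7 (35%) had a ratio beyond their local spread, beside 42.2% of all such probe sets.

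Igf1 encodes the ligand, a secreted growth factor made in liver and also locally by stromal cells and macrophages. All 4 of its probe sets exceeded the floor on both arrays. The brightest, 1452014_a_at, gave a signal of 8428 in the control pool and 8036 in the threonine-deficient pool (log2 ratio −0.07, local spread 0.16.) The other 3 were higher in the threonine-deficient pool. Probe set 1434413_at went from 2271 to 3298 (log2 ratio 0.54, local spread 0.23.) Probe set 1419519_at went from 1368 to 1873 (0.45, local spread 0.27), and 1437401_at from 2180 to 2689 (0.30, local spread 0.22). Thus the reading of Igf1 depended on the probe set: 0.95 times the control signal in the brightest, and 1.23, 1.37 and 1.45 times in the others. The median log2 ratio of all 4 probe sets was 0.38. The 4 values spanned 0.61, beside a median span of 0.69 over the 355 genes with 4 probe sets above the floor, and 81.7% of those genes also had values of both signs.

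Of the receptor genes, Insr encodes the insulin receptor, and its brightest probe set, 1434446_at, gave 2352 in the control pool and 2337 in the threonine-deficient pool (log2 ratio −0.0094, local spread 0.22.) Probe set 1450225_at was below the floor in the control pool at 216 and above it in the threonine-deficient pool at 364, which makes it at least 1.37-fold higher. The remaining one, 1421380_at, was designed from the same transcript sequence and lay below the floor on both arrays, at 46.2 and 27.1. The bright probe set and the one near the floor therefore gave different readings of Insr.

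Igf1r encodes the IGF1 receptor and was read by 5 probe sets, 3 of them above the floor on both arrays. The brightest, 1452982_at, went from 940 to 1109 (log2 ratio 0.24, local spread 0.33.) Probe set 1428967_at, designed from the same sequence, went from 373 to 461 (0.30, local spread 0.49). Probe set 1426565_at went the other way, from 519 to 373 (−0.48, local spread 0.51). None of the 3 ratios was beyond its local spread. The remaining pair lay below the floor on both arrays, with control signals of 133 and 102 and threonine-deficient signals of 29.0 and 31.4.

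The receptor substrates were each read by 1 probe set. Irs1, an adaptor that carries the signal from both receptors to PI3 kinase, gave 497 in the control pool and 601 in the threonine-deficient pool (log2 ratio 0.27, local spread 0.47.) Irs2, the adaptor best known for its part in beta cells and liver, gave 218 and 151, both below the floor, so no ratio is given. Neither substrate could be checked against a second probe set.

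**Figure D2:**
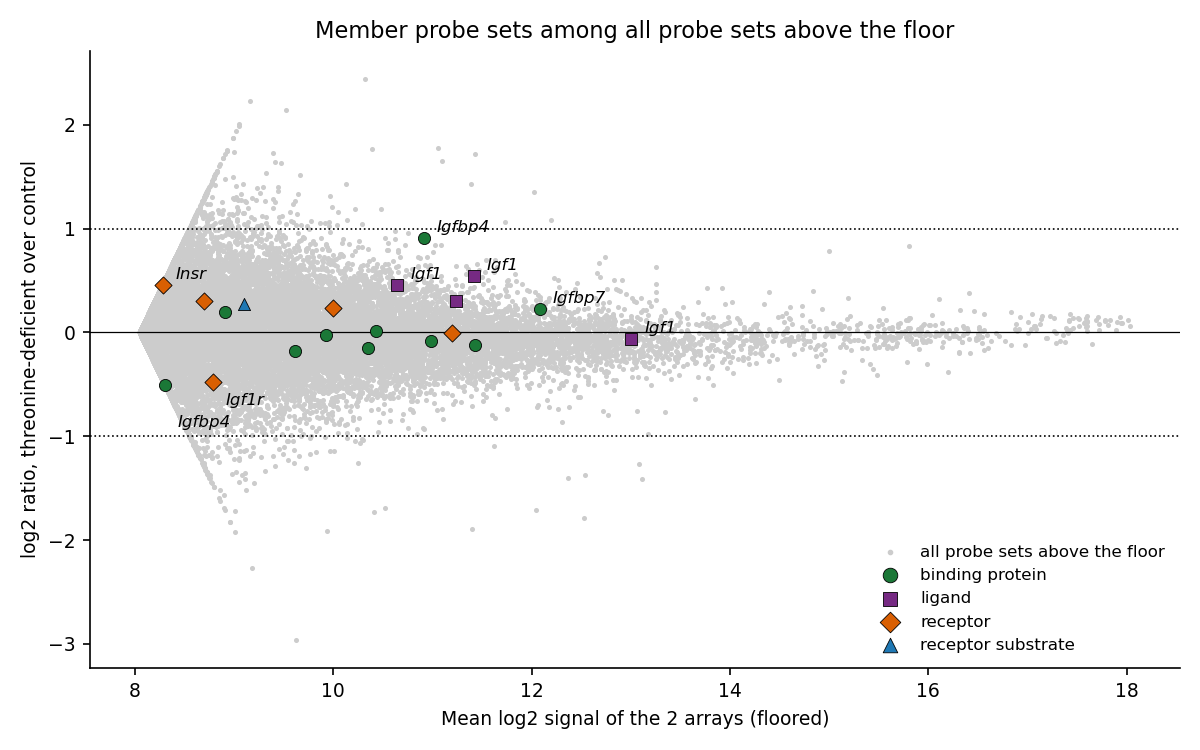
Log2 ratio of threonine-deficient over control (vertical axis) against mean log2 signal after flooring (horizontal axis) for the 19818 probe sets above the floor on at least 1 array (grey), with the 20 member probe sets coloured by role and dotted lines at 2-fold. The widest member ratio, 0.91, belongs to an Igfbp4 probe set, and every member point lies inside the 2-fold lines.

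Of the binding proteins, Igfbp3 encodes the main carrier of IGFs in blood, and it gave the closest readings. Probe set 1458268_s_at gave 1367 and 1384, and 1423062_at gave 980 and 966, in the control and threonine-deficient pools. The log2 ratios were 0.02 and −0.02, and local spreads were 0.27 and 0.35. Of the 2659 genes with 2 probe sets above the floor, 7.03% had a smaller difference between them.

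Igfbp4 encodes a binding protein that mostly restrains IGF action until a protease, PAPP-A, cleaves it. It was read by 6 probe sets, which gave the widest disagreement of any member. The brightest, 1437405_a_at, went from 2875 to 2649 (log2 ratio −0.12, local spread 0.23.) Probe set 1423756_s_at went from 2087 to 1975 (−0.08), 1423757_x_at from 1375 to 1236 (−0.15), and 1421992_a_at from 448 to 513 (0.20), all within their local spreads. The remaining readings stood away from these. Probe set 1437406_x_at went from 1408 to 2642, which is 1.88-fold higher (log2 ratio 0.91, local spread 0.25). Probe set 1421991_a_at went from 376 to 155, below the floor in the threonine-deficient pool, and so was at least 1.42-fold lower.

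The Igfbp4 probe sets fall into 3 pairs, each designed from 1 sequence. The bright pair, 1437405_a_at and 1437406_x_at, differed by 1.03 in log2 ratio. Across all genes, 1463 such pairs had both probe sets above the floor, with a median difference of 0.31, and 85 of them differed by more than this one. The pair 1423756_s_at and 1423757_x_at differed by 0.07, and the dimmer pair, 1421992_a_at and 1421991_a_at, by 0.70. The 1.88-fold reading was the 1 member probe set at least 1.5-fold apart, beside 13.6% of all probe sets above the floor, and it was not seen in its partner. The 6 ratios spanned 1.42, more than in 93.3% of the 45 genes with 6 probe sets above the floor.

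**Figure D3:**
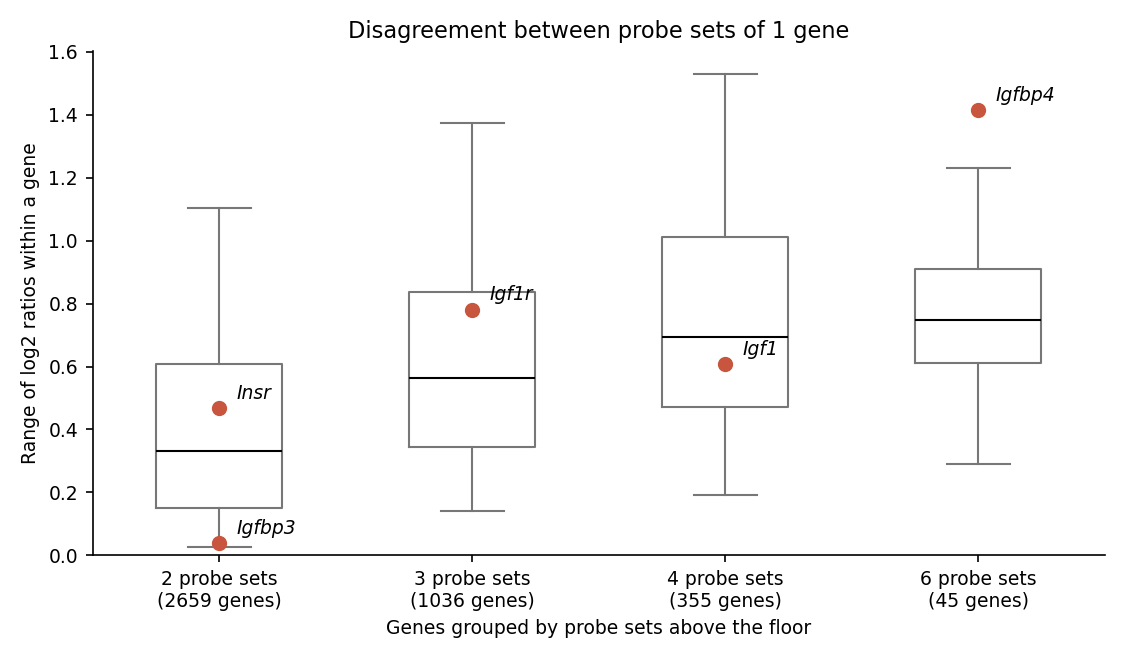
Span of log2 ratios between the probe sets of 1 gene (vertical axis) for genes with 2, 3, 4 or 6 probe sets above the floor; boxes show the quartiles and median, whiskers the 5th and 95th percentiles, and red points the members. Igfbp4, at 1.42, lies above the whisker of its group, while Igf1, at 0.61, lies below the median of 0.69.

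Igfbp5 encodes a binding protein that attaches to the extracellular matrix. Probe set 1452114_s_at went from 836 to 738 (log2 ratio −0.18, local spread 0.38), and its other probe set lay below the floor at 201 and 141. Igfbp7 encodes a secreted protein of vessel walls and stroma that binds IGFs only weakly. Its brightest probe set, 1423584_at, went from 4017 to 4695 (log2 ratio 0.23, local spread 0.18.) Among the 8 members this was the 1 whose brightest probe set lay beyond its local spread, beside 39.3% of all genes. The other probe sets of Igfbp7 lay below the floor, at 51.6 and 88.5 for 1423585_at and 42.4 and 31.7 for 1437804_at.

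In all, 5 members had more than 1 probe set above the floor, and in all 5 these included values of both signs. Over all genes that held for 48.5% of those with 2 such probe sets, 71.7% with 3, 81.7% with 4 and 93.3% with 6. In 1 of the 5, Igfbp4, the brightest and next brightest probe sets had the same sign. Over the 4251 genes of the array with at least 2 probe sets above the floor, that share was 51.9%, and the error per probe set, from the difference of the pair, had a standard deviation of 0.38 in log2 units. It covers probe and hybridisation noise and not the spread between animals. All 8 brightest-probe-set ratios of the members were smaller than this error.

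The wider pathway was read from 84 further genes, of which 73 had a probe set and 57 were above the floor. Read by their brightest probe sets, none of the 57 was 2-fold apart in either direction, beside 2.16% of all genes. Their log2 ratios were positive in 24 and negative in 33, with a median of −0.05, while 50.1% of all genes above the floor had a positive ratio. Insulin itself, read as Ins2, gave 93733 in the control pool and 81745 in the threonine-deficient pool (log2 ratio −0.20, local spread 0.11), though its probe set may also read Ins1. Igf2, the fetal growth factor, lay below the floor at 61.7 and 57.6. Igf2r, the receptor that removes IGF2, gave 2057 and 2050, a log2 ratio of −0.0046, and −0.02 in its other probe set.

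Among other substrates and adaptors, 5 of 8 genes had higher and 3 lower signals in the threonine-deficient pool, with a median of 0.16 that was 0 when each gene was read by the median of every probe set it has, −0.05 by the median of those above the floor and −0.29 without probe sets ending in _s_at, _x_at or _a_at. Grb2, which links receptors to RAS, had a log2 ratio of 0.78, and 0.25 in its other probe set. Gab1, a docking protein, had 0.65 in the brightest probe set but −0.74 and −0.45 in the others. Dok4, a docking protein of the IRS-related family, had −0.52. Of the receptor inhibitors, 5 of 7 were lower, with a median of −0.16 that ranged from −0.21 to −0.11 under other settings. Socs3, a suppressor of cytokine and insulin signalling, had −0.52 in its brightest probe set (local spread 0.72). It was at least 1.08-fold lower in the next, which was above the floor in the control pool only. Ptpn1, the phosphatase that switches off the insulin receptor, had 0.28 and 0.66 in its probe sets. Ptprf, another receptor phosphatase, had −0.26, −0.32 and −0.44 in its 3.

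Other binding proteins, partners and proteases went both ways, 4 higher and 2 lower of 6. By the median of each gene's probe sets 2 were higher and 4 lower. The list median of 0.08 ranged from −0.17 to 0.34 under other settings. Igfals and Pappa2 were above the floor in the threonine-deficient pool only and Stc1 in the control pool only, which fixed their direction. Htra1, a secreted protease that cuts IGF binding proteins, had 0.87 in its brightest probe set and was at least 2.13-fold lower in another. Igfals, which stabilises the IGF complex in blood, was at least 1.77-fold higher, and Stc1, a relative of the PAPP-A inhibitor Stc2, at least 1.72-fold lower. Igfbp6, chosen after its values were seen, went from 1519 to 942 (log2 ratio −0.69, local spread 0.31) in 1 probe set. Igf2bp3, a relative of the unread Igf2bp2, had −0.52 in the brightest probe set and −0.05 in the next.

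In the PI3 kinase and AKT list 11 of 14 genes were lower and 3 higher, where 50.1% of all genes above the floor had a positive ratio. Of the lower ones, Mlst8, Pik3r2 and Pik3r3 were above the floor in the control pool only, so they could count only as lower. When each gene was read by the median of every probe set it has, 8 were lower and 3 higher. The list median was −0.15, and it ranged from −0.27 to −0.03 under other settings, which all reprocess the same arrays. Rictor, a core subunit of mTOR complex 2, had −0.55. Mtor, the kinase of both mTOR complexes, had 0.54 and 0.76 in its probe sets. Phlpp1, a phosphatase that acts on AKT, had 0.60 (local spread 0.64). Among AKT targets 6 were higher and 7 lower, with a median of −0.01. Foxo1, a transcription factor that AKT keeps out of the nucleus, had −0.47 and −0.99 in its brighter probe sets and was at least 1.30-fold higher in a dimmer one. Bad, a cell death protein, had 0.52 and −0.23, and Foxo4 had −0.40. Mdm2 had 0.13 in its brightest probe set and was at least 2.33-fold lower in another, which was above the floor in the control pool only. Of the RAS and MAP kinase genes, 4 of 6 were higher, with a median of 0.11 that ranged from 0.0051 to 0.15 under other settings. Nras, a RAS protein, ranged from −0.60 to 0.45 over its probe sets, Braf had −0.35, and Sos2, an exchange factor for RAS, had 0.26.

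**Figure D4:**
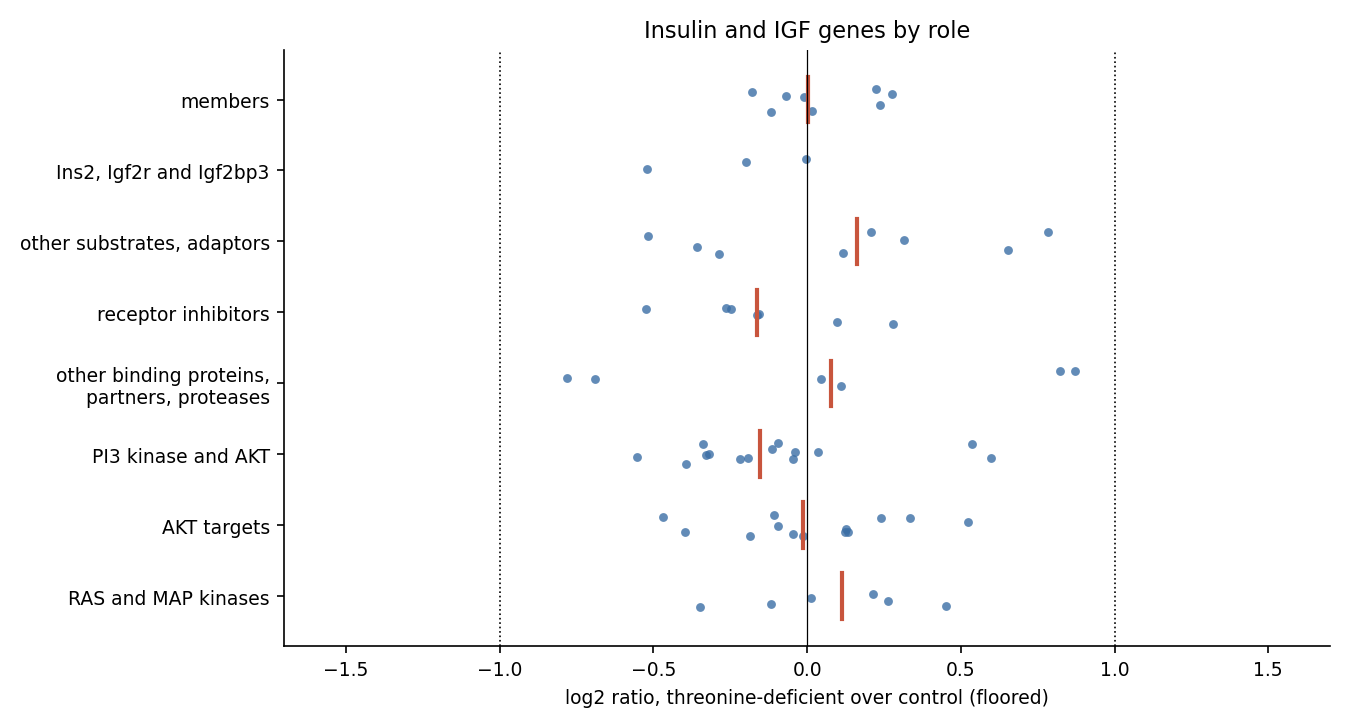
Log2 ratios of threonine-deficient over control (horizontal axis) by role, 1 point for each gene above the floor, read by its brightest probe set; red bars are medians, drawn for lists of at least 4 genes, and dotted lines mark 2-fold. No point lies beyond 2-fold, and the PI3 kinase and AKT list has its median at −0.15.

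Both arrays read as pancreas, with 8 of 8 acinar markers above the floor, summing to 1175020 signal units in the control pool and 1265490 in the threonine-deficient pool. Markers of other cells that express insulin and IGF genes moved as follows. Endothelial markers were higher in 9 of 9 genes above the floor, with Tie1 below it. Their median log2 ratio was 0.36 and their summed signal 5776 against 7486. Kdr and the brightest probe set of Flt1 were above the floor in the threonine-deficient pool only, so they could count only as higher. By the median of each gene's probe sets 8 were higher and 1 lower, and the list median ranged from 0.25 to 0.36 under other settings. Pecam1, an adhesion protein of endothelial cells, had 0.57, and Flt1, a VEGF receptor, had −0.13 and −0.08 in its dimmer probe sets and was at least 2.85-fold higher in the brightest. Macrophage markers were higher in 4 of 7, with a median of 0.34 that turned to −0.11 under 1 of 9 other settings, and summed to 8706 against 8918. Adgre1 had 0.67, and Csf1r had 0.51 in its brightest probe set and 0.25 and 0.10 in the others. The lower macrophage markers were Lyz2 (−0.43, local spread 0.22), C1qb (−0.19) and C1qa (−0.11), each by its brightest probe set. Adipocyte markers were lower in 6 of 7, with Lep below the floor, a median of −0.98 and a summed signal of 42856 against 23505. That median was −0.57 when each gene was read by the median of its probe sets. Beta cell markers were lower in 5 of 6, with Nkx6-1 below the floor, a median of −0.42 and a summed signal of 150031 against 123922. Among the lower genes, Cidec of the adipocyte list and Slc2a2 of the beta cell list were above the floor in the control pool only. Pparg, the adipocyte marker that was higher, was above it in the threonine-deficient pool only. Markers of other islet cells were lower in 5 of 5, with a median of −0.45 and a summed signal of 29072 against 22761, among them Sst (−0.92) and Chga (−0.50). Smooth muscle and pericyte markers, with Myh11 and Cnn1 below the floor, were higher in 2 and lower in 2. Their summed signal was 4692 against 5129, and their median of 0.22 ranged from 0.0066 to 0.22 under other settings. Tagln had −0.91 and Acta2 −0.01. Rgs5 had 0.46 in its brightest probe set and 0.15, 0.52 and 0.07 in the others. Cspg4, at least 1.44-fold higher, was above the floor in the threonine-deficient pool only, so it could count only as higher. Fibroblast markers, 3 higher and 3 lower with Col1a1, Pdgfrb and Des below the floor, had a median of −0.02 and summed to 26332 against 26287. Fewer cells of a type and less RNA per cell cannot be told apart in such pools. The part of these shifts in the values of Igf1, Igfbp7 and the receptors was not tested. The ratio of 3′ to 5′ control probe signals was 0.97 and 0.83 for Gapdh and 1.46 and 1.53 for Actb in the control and threonine-deficient pools.

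**Figure D5:**
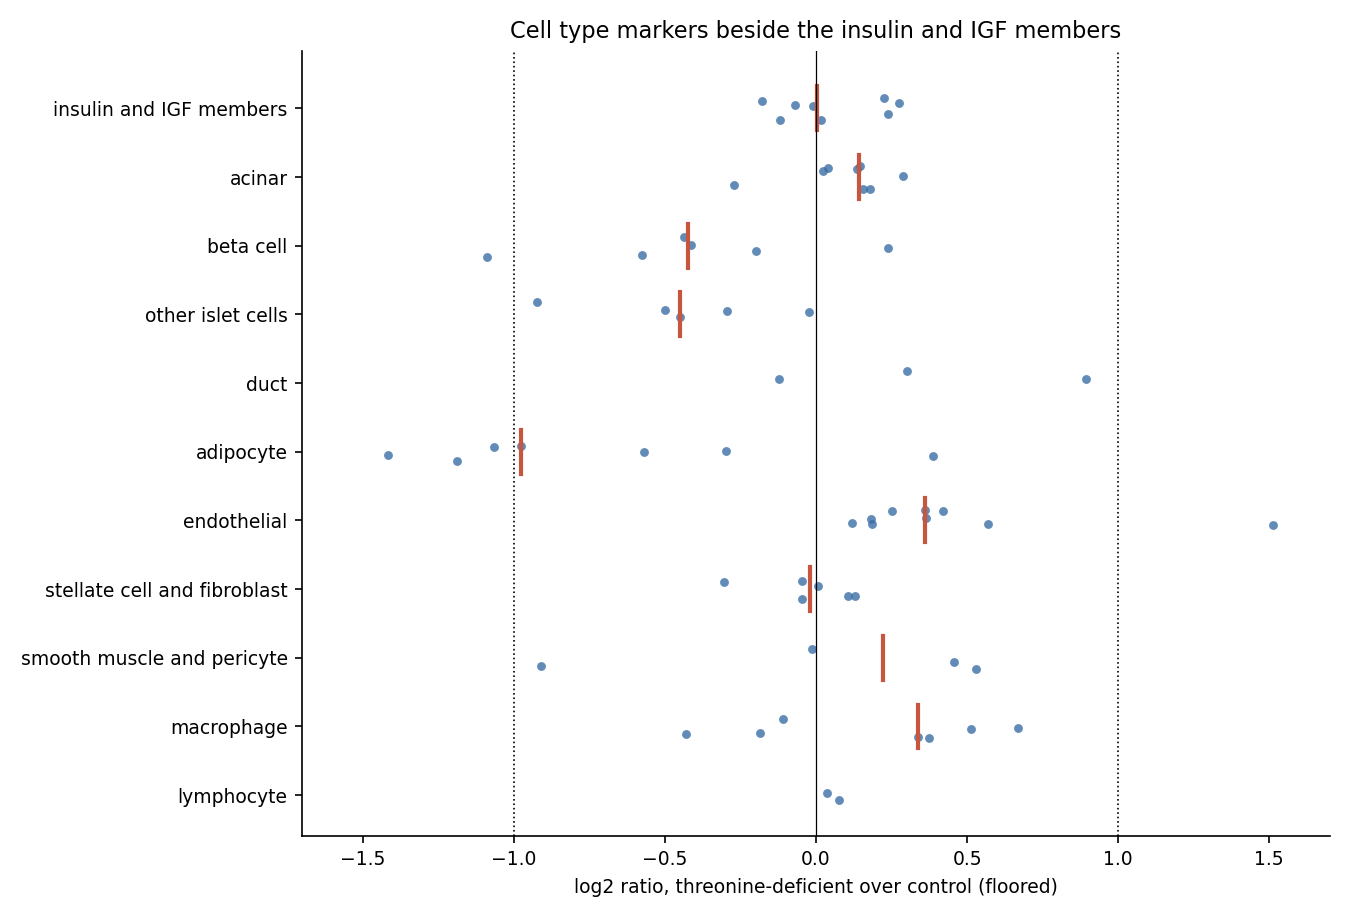
Log2 ratios of threonine-deficient over control (horizontal axis) of the 8 members and of cell type markers above the floor, 1 point for each gene, with red bars for medians of lists of at least 4 genes and dotted lines at 2-fold. The members centre on 0.0039, endothelial markers on 0.36 and adipocyte markers on −0.98.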

How the data were processed

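The deposited table held linear signal intensity per probe set, made with MAS5 per the submitters' processing notes; its version and any genome build are not given in the sources used here, so no positions are printed. The trimmed mean was 500.0 on both arrays, so ratios are relative to the rest of each array. Of 45101 probe sets, 64 were controls; 34945 carried 1 gene symbol, 932 several and 9160 none, and 34741 names were checked against RefSeq genes of GRCm38.p6. Ratios were taken as log2 after flooring, in Python 3.11.15, and each gene was read by its probe set of highest mean log2 signal. Genes were called apart at 2-fold; with 1 array per group no test was possible, and the number of arrays limits the precision. The code that makes these calls was tested on simulated data. Members and lists were chosen with earlier results of these data known. Named were all members, up to 3 genes of largest absolute ratio per pathway list, and up to 2 per marker list. Genes below the floor, or above it on 1 array only, were also named where they bear on a count. Further genes were named where those of largest ratio showed only 1 side of a list, or where a dimmer probe set was 2-fold apart. Alternatives covered the floor, centring, a pseudocount and the choice of probe sets. No member sequence is printed, because probe and protein sequences were not used here.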

Additional observations from a re-analysis of the deposited data

How the results depend on the processing

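No member was 2-fold apart under any of 9 alternatives of floor, centring, pseudocount and probe set choice, nor at 1.5-fold. The median log2 ratio of the members, 0.0039, was 0.22 with the median over each gene's probe sets above the floor, and 0.23 without probe sets ending in _s_at, _x_at or _a_at, which leaves 6 members; over all genes these settings gave 0.0098 and 0.0077. Of 70 single-gene values under these alternatives, 65 moved by less than the local spread, but many of these could hardly move. Where the brightest probe set was above each floor on both arrays, a change of floor left its ratio as it was. Centring on the median moved ratios by 0.0011 only. The 5 values that moved further all came with another choice of probe sets. Igf1 moved most, from −0.07 to 0.38 with the median over its probe sets and to 0.54 without those suffixes, since its brightest probe set then drops out. Insr moved to 0.22 with the median over probe sets above the floor, and Igfbp7 to 0 with the median over all its probe sets, since 2 of the 3 sit at the floor. Irs2, below the floor, had −0.25 with a floor at the 50th percentile and −0.53 with none. The error per probe set was 1.17 with no floor and 0.29 with a floor at the 75th percentile. The count of the other pathway genes 2-fold apart went from 0 to 14 with no floor, where 24.8% of all genes were, and to 2 with a floor at the 50th percentile, where 4.30% were. No paired analysis was possible because each group had 1 array.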

Other observations

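Agreement of 3 probe sets of Igf1 was set beside other genes, a comparison chosen after the values were seen. Of the 355 genes with 4 probe sets above the floor, 17 (4.79%) had at least 3 that were 1.2-fold or more higher in the threonine-deficient pool, Igf1 among them, and 19 (5.35%) had at least 3 that were as much lower. The probe set of Igf1 that did not share the direction was its brightest, and with 1 array per group no measurement here says which reading holds for the animals.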
